A study of Homo sapiens with 3 samples.

Results

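THP-1 cells after 24 h with GSK-LSD1 were compared with the same cells before treatment, with 1 RNA-seq library on each side. THP-1 is a human line grown from an acute monocytic leukemia, and it expresses the MLL-AF9 fusion protein that drives this disease. GSK-LSD1, an irreversible inhibitor of the histone demethylase LSD1, was given at 0.2 µM per the labels, and the comparison asks what differed at 24 h in a treatment meant to set off monocytic differentiation. The treated library is labelled LSD1 inhibition and 24 h, and the untreated library is labelled WT, Control and 0 h. Both come from the same line without any engineered change, and 2 of the 3 libraries of the series enter the comparison. The remaining library was taken at 8 h, and its counts are given beside the others. The treated cells differ from the untreated ones both in the inhibitor and in 24 h of culture, which cannot be told apart here, and the labels name no vehicle control.

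Of the 213543 rows in the count table, 4196 had 50 or more counts in the 0 h or the 24 h library, and these rows are described here. They hold 89.2% of the counts at 0 h and 89.4% at 24 h, out of totals of 1475938 and 1444011 counts. A level is given in CPM, counts scaled to the library size after TMM, and a difference is the log2 ratio of the 24 h CPM to the 0 h CPM. The range in brackets after a ratio is its exact (Clopper-Pearson) 95% interval, which covers counting error only. Without a replicate there is no test, and "higher" or "lower" is used of rows past a 2-fold ratio.

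Most of the 4196 rows, 3949, are named by a protein accession of UniProt, and 247 by an Ensembl transcript. The files do not pair accessions with genes, so the gene of an accession was assigned from knowledge of UniProt and only where it was certain. This named 128 of the 132 higher and 64 of the 72 lower accession rows. Counts were sparse for many familiar genes. GAPDH had 5 counts at 0 h and 4 at 24 h under its accession, and ACTG1, ENO1 and FLNA were listed at 0 in both libraries. How reads shared between entries were assigned is not given in the sources used here, so a row at 0 does not show that its gene was silent.

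The monocytic identity of the line was checked on 10 marker genes. Their summed level was 758 CPM at 0 h and 1853 CPM at 24 h, of which LYZ, which encodes lysozyme, gave 426 and 1248 CPM. CD33, FCER1G and TYROBP were listed at 0 in both libraries, and CD68 had 0 counts at 0 h and 2 at 24 h. None of the 3 T or NK cell markers with a row and none of the 5 erythroid markers had a count. B cell markers summed to 1 count in each library, megakaryocytic markers to 2 counts in each, and epithelial or stromal markers to 0 and 2 counts. In bulk RNA a change in the share of cells of a type and a change in RNA per cell cannot be told apart.

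LSD1, encoded by KDM1A, removes methyl groups from lysine 4 of histone H3 and works within the CoREST complex. The repressors GFI1 and GFI1B bring this complex to enhancers of myeloid genes, where PU.1 and C/EBP factors bind. A maturing monocyte gains adhesion receptors, a superoxide-producing oxidase, lysosomal proteases and antimicrobial S100 proteins, while stem and progenitor genes fall.

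At 24 h, 141 rows were higher than at 0 h (3.36% of the rows) and 92 were lower (2.19%). The remaining 3963 rows lay within 2-fold, and the median log2 ratio of all 4196 rows was -0.02, with quartiles of -0.29 and 0.24. Among rows past 4-fold, 29 were higher and 3 lower. The counting interval lay wholly past 2-fold for 67 higher and 13 lower rows. At the edge of the threshold, the last row counted as higher had a log2 ratio of 1.0016 and the next 0.9965, and the last lower row had -1.0022 and the next -0.9982. Higher rows made up 60.5% of the rows past 2-fold under TMM scaling, while scaling by total counts gave 121 higher and 126 lower rows. Of the higher rows, 73 had under 50 counts at 0 h and passed the count limit through the 24 h library alone, and 67 of the lower rows had under 50 counts at 24 h.

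**Figure D1:**
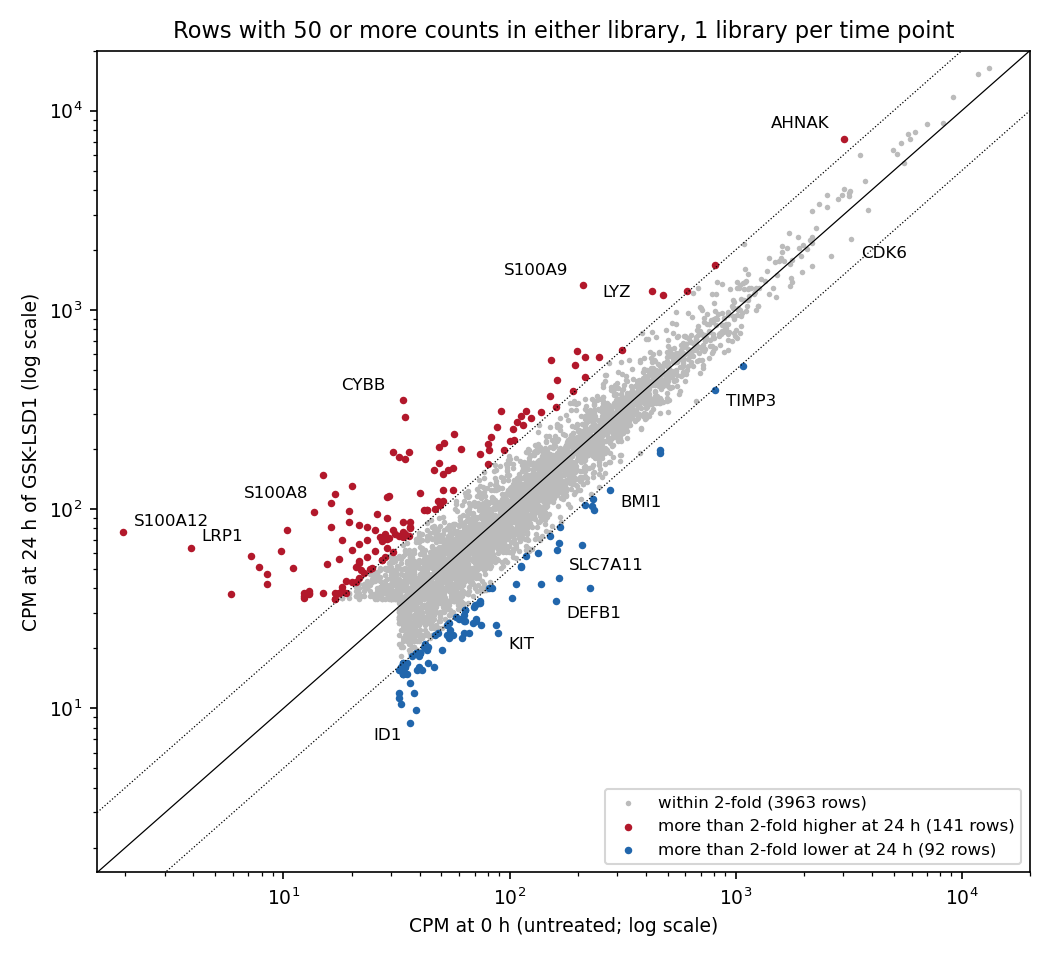
CPM of the 4196 rows at 0 h (x axis) and 24 h (y axis), both on log scales, with 1 point per row. The solid line marks equal levels and the dotted lines a 2-fold ratio. S100A12, CYBB and S100A9 stand far above the upper dotted line, and DEFB1, KIT and SLC7A11 below the lower one.

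The 20 leading rows in each direction were ranked by the end of their counting interval nearest to no change. The leading higher rows included S100A12, CYBB, LRP1, S100A9, S100A8, ITGAM and MPEG1 of phagocytes, together with the signalling genes DTX4, IRS1, GPR65 and PRLR. The leading lower rows included the antimicrobial peptide DEFB1, the receptor KIT, the cystine transporter SLC7A11 and the chromatin regulator BMI1. Gene lists were read alongside them for their members past 2-fold. The counts for each list stand beside 3.36% higher and 2.19% lower over all rows. Other genes were chosen after their values were seen, apart from CD86, CD14, ITGAM, LYZ, SPI1, MYC, MYB, HOXA9, MEIS1, KDM1A and GFI1, which are reported at any value. The lists and these genes were themselves chosen with earlier results of these data known, so their values are a description only.

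**Figure D2:**
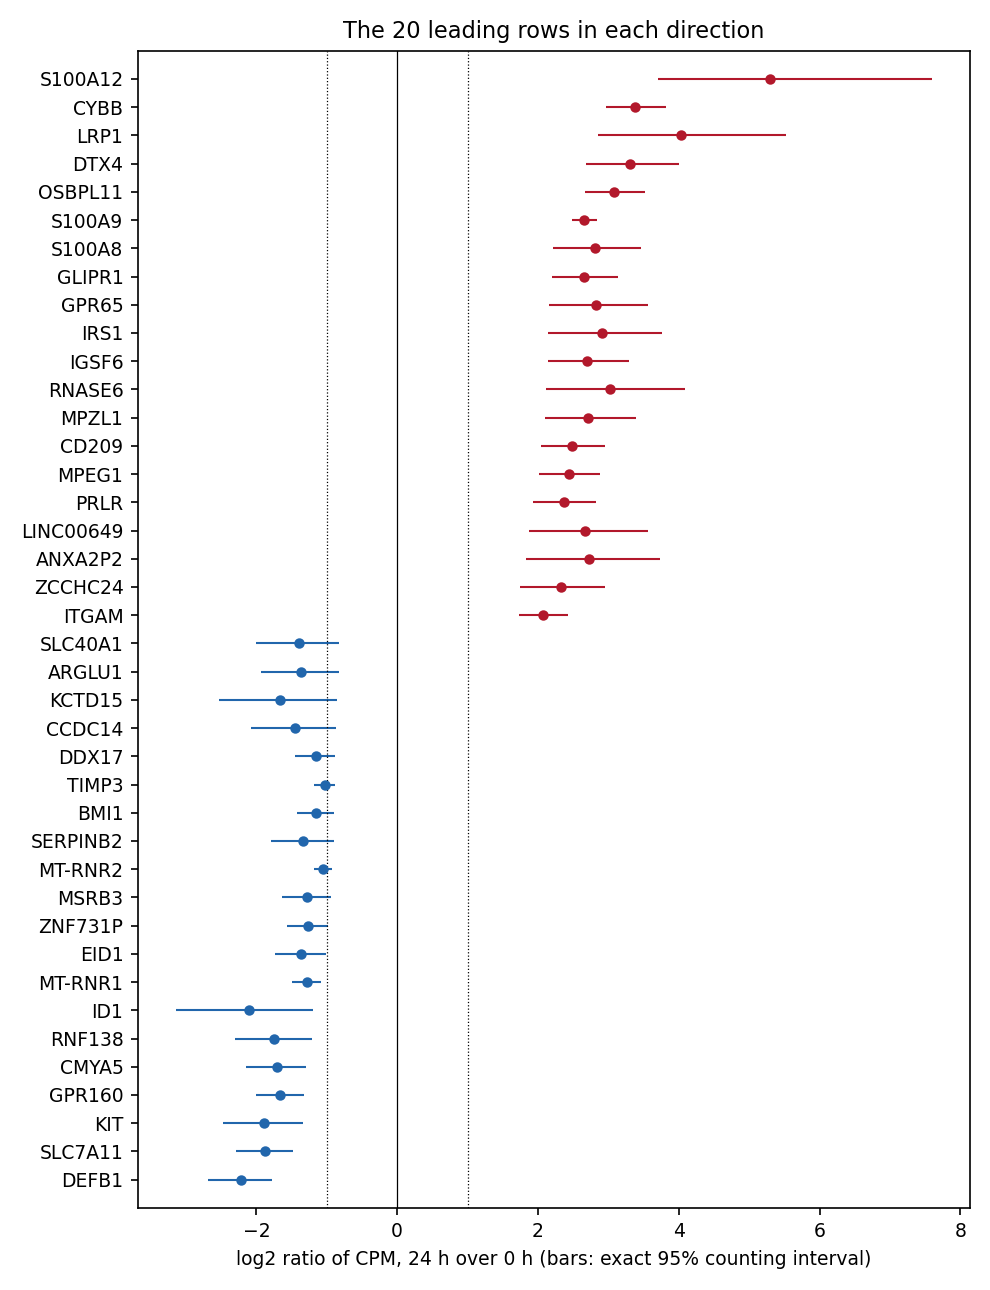
Log2 ratio of CPM, 24 h over 0 h (x axis), for the 20 leading rows in each direction. Points are ratios, bars are exact 95% counting intervals, and dotted lines mark a 2-fold ratio. The bars of S100A12, from 3.71 to 7.60, and LRP1, from 2.86 to 5.52, are wide because few counts stand behind the 0 h level.

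Among the S100 genes, 4 were higher, and S100A12 had the largest ratio of the leading rows. S100A8 and S100A9 encode the subunits of calprotectin, a calcium-binding and metal-binding protein of monocytes and neutrophils, and S100A12 encodes a related alarmin. All 3 lie on chromosome 1 of GRCh38, S100A9 from 153357854 to 153361023 on the forward strand, S100A12 from 153373711 to 153375621 and S100A8 from 153390032 to 153391073 on the reverse strand. The 250 bases before the RefSeq start of each are shown because the 3 neighbours were higher together, and ITGAM is shown as the leading integrin gene. Capitals mark matches to short cores of myeloid factors on either strand, AAATCAC for GFI1 and GAGGAAG for PU.1. The sequences are from RefSeq on GRCh38.p14 and read 5′ to 3′ on the strand of the gene.
S100A12, chr1:153375622-153375871, reverse strand: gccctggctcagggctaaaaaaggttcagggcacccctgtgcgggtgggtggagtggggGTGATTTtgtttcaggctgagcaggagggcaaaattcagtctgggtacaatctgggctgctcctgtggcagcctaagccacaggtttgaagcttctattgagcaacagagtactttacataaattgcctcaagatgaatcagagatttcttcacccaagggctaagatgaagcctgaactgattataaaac
S100A8, chr1:153391189-153391438, reverse strand: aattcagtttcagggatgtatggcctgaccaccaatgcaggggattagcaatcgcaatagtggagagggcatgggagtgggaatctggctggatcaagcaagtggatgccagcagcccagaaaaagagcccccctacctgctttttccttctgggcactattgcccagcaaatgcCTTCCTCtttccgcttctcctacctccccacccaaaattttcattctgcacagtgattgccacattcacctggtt
S100A9, chr1:153357604-153357853, forward strand: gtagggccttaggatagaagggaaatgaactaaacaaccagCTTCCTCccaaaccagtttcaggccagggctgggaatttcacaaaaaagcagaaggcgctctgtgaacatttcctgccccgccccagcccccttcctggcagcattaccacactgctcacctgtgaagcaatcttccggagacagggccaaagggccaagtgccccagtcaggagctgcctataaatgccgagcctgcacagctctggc
ITGAM, chr16:31259725-31259974, forward strand: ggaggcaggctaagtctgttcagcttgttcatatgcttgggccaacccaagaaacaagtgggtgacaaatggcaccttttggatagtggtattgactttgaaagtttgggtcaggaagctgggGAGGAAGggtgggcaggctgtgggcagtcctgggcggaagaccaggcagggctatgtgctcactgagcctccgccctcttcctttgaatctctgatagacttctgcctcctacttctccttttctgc
The S100A12 match begins 191 bases before the start and has the letters of the reverse complement, GTGATTT. The PU.1 core begins 75 bases before the start in S100A8, 209 in S100A9 and 127 in ITGAM, as its reverse complement CTTCCTC in both S100 genes.

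Such matches are common, and they were counted over all promoters of the reference, taken from 250 bases before to 50 after the start. GAGGAAG or its reverse complement occurred in 22 of the 95 promoters found for higher genes (23.2%), in 8 of the 47 found for lower genes (17.0%) and in 13.4% of 27305 promoters. The GFI1 core occurred in 2 of the 95 (2.11%), in 1 of the 47 (2.13%) and in 3.08% of all. The AP-1 core TGACTCA occurred in 5 of the 95 (5.26%), in 1 of the 47 (2.13%) and in 4.92% of all. The C/EBP sequence TTGCGCAA was in none of these 95 or 47 promoters and in 0.128% of all. The promoters of the leading genes CYBB, LRP1, DTX4 and OSBPL11 held none of the searched motifs, and neither did that of S100A10. The share among promoters of all tested rows was not counted. No searched motif contains another, and a match describes letters, not binding.

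For S100A12, 3 reads were counted at 0 h, 7 at 8 h and 109 at 24 h, from 1.95 to 76.7 CPM, a log2 ratio of 5.30 with an interval from 3.71 to 7.60. S100A9 had 324, 399 and 1894 counts at the successive times, for a ratio of 2.66 (2.49 to 2.84). S100A8 had 26, 25 and 169 counts, with a ratio of 2.81 (2.21 to 3.47). In each of these 3 genes the 24 h library stood far above both the 0 h and the 8 h library. S100A10, the partner of annexin A2 at the membrane, went from 28 to 99 counts, a log2 ratio of 1.94 (1.32 to 2.60). LYZ, which encodes the bacteriolytic enzyme lysozyme, had 655, 747 and 1773 counts, for a ratio of 1.55 (1.42 to 1.68). In the list of granule, S100 and secreted host defence proteins, 11 of 28 genes had 50 or more counts. Of these, 5 were higher, 1 was lower and the median log2 ratio was 0.53, beside -0.02 over all rows. The lower one was DEFB1, and the neutrophil elastase gene ELANE, a granule gene of promyelocytes, had a ratio of 0.10 (0.02 to 0.17) at 2112 CPM. VCAN, which encodes the proteoglycan versican of monocytes, stayed under 50 counts with 7 at 0 h and 37 at 24 h.

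CYBB, the catalytic subunit of the phagocyte NADPH oxidase, ranked 2 among the leading higher rows. It lies on the X chromosome from 37780018 to 37813461 on the forward strand. Its counts of 52, 156 and 499 corresponded to a level that went from 33.8 to 351 CPM, a log2 ratio of 3.38 (2.96 to 3.82) or 10.4-fold higher. CYBA, its membrane partner, had 133, 177 and 188 counts, for a ratio of 0.61 (0.28 to 0.94). The GTPases RAC1 and RAC2 had ratios of 0.10 and 0.36, and NCF1 and NCF4 were listed at 0. Of 5 subunits of the oxidase with 50 or more counts, CYBB alone was past 2-fold. HVCN1, a proton channel that balances the charge moved by the oxidase, was also higher with 26 counts at 0 h and 54 at 24 h, a ratio of 1.17 (0.47 to 1.90).

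Among receptors of monocytes and macrophages, 16 of 49 genes had 50 or more counts, 5 were higher and none was lower, with a median log2 ratio of 0.67. LRP1, a scavenger and endocytic receptor on chromosome 12 (57128483 to 57213361, forward strand), had 6, 28 and 91 counts at 0, 8 and 24 h, a ratio of 4.04 (2.86 to 5.52). ITGAM, the CD11b chain of the complement receptor Mac-1 on chromosome 16 (31259967 to 31332892, forward strand), had 87, 120 and 339 counts, from 56.6 to 239 CPM, a ratio of 2.08 (1.73 to 2.43). ITGAL, the CD11a chain of LFA-1, had a smaller ratio of 1.19 (0.78 to 1.61). The chemokine receptor CXCR4 was higher with 31, 77 and 89 counts, a ratio of 1.63 (1.03 to 2.27). THBD, which encodes thrombomodulin, had 250, 615 and 633 counts, a ratio of 1.45 (1.24 to 1.67), so that its 8 h and 24 h levels were close and both above 0 h. The monocyte chemokine receptors CCR2 and CX3CR1 stayed within 2-fold at ratios of 0.87 (0.73 to 1.01) and 0.76 (0.54 to 0.98). TREM2, a lipid receptor of macrophages, had the lowest ratio of the 16 at -0.70 (-0.98 to -0.42), and TLR2 had -0.46 (-0.80 to -0.12).

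CD86, the costimulatory ligand of T cells that is used as a readout of LSD1 inhibition in monocytic leukemia cells, had too few counts for the 50-count limit. Its accession held 1, 19 and 37 counts, from 0.651 to 26.1 CPM, a log2 ratio of 5.32 (2.76 to 10.66). The interval is wide because its lower library rests on 1 count, and its lower end is still past 2-fold. CD14, the lipopolysaccharide co-receptor, had 0, 5 and 6 counts, and set against the floor of 3 counts it was at least 2.16-fold higher. ITGB2, the common chain of both integrins above, had 7, 3 and 6 counts under its accession. TLR1 was also under the limit at 16, 44 and 49 counts, with a ratio of 1.73 (0.89 to 2.64). PTAFR of the receptor list, under the limit as well, went the other way. It had 37, 12 and 12 counts, a ratio of -1.51 (-2.59 to -0.54).

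Outside the lists, genes of leukocyte surface proteins stood on both sides, and those named next were higher, while CD38 and LY75 were lower. CD209, the lectin DC-SIGN, had 50, 108 and 259 counts, a ratio of 2.49 (2.04 to 2.95). CD180 and LY86, which form a complex of the Toll-like receptor family, had ratios of 2.20 (1.42 to 3.05) and 1.81 (1.43 to 2.20). CD84, an adhesion receptor of the SLAM family, had 299, 649 and 749 counts, a ratio of 1.44 (1.24 to 1.64). G protein-coupled receptors were represented by GPR65, a sensor of extracellular acid, at 21, 113 and 138 counts with a ratio of 2.83 (2.16 to 3.57), and by GPR183, the oxysterol receptor EBI2, at 1.87 (1.35 to 2.42). IL17RA, the shared interleukin-17 receptor chain, had 808 CPM at 0 h and 1683 CPM at 24 h, a ratio of 1.06 (0.96 to 1.16). The interleukin-27 receptor gene IL27RA had 76 counts at 0 h and 149 at 24 h, a ratio of 1.08 (0.68 to 1.50). IGSF6, an immunoglobulin-superfamily protein of myeloid cells, had 31, 143 and 186 counts, a ratio of 2.70 (2.14 to 3.30).

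In the lysosome list, 3 of the 6 tested genes were higher. CTSB, CTSS and CTSZ, which encode cathepsins B, S and Z, had log2 ratios of 1.65 (1.15 to 2.18), 1.15 (0.91 to 1.39) and 1.21 (1.03 to 1.39). CTSS went from 212 counts through 324 at 8 h to 434, and CTSZ from 384 through 523 to 822. The 6 tested genes, of 26 in the list, had a median of 0.78, and none was lower. The protease gene CTSC and LAMP2 had ratios of -0.05 (-0.46 to 0.35) and -0.27 (-0.38 to -0.15). The membrane protein LAMP1 was under the limit, with 10 counts at 0 h and 36 at 24 h. HEXA of the same list, also under the limit, fell from 20 to 7 counts, a ratio of -1.40 (-2.89 to -0.10). Outside the list, DNASE2, the acid nuclease of lysosomes, had a ratio of 1.76 (1.08 to 2.49). FUCA1, the lysosomal fucosidase, had 1.16 (0.63 to 1.72). SORT1, the sorting receptor sortilin, had 79, 145 and 304 counts, a ratio of 2.06 (1.70 to 2.43). MPEG1, which encodes the pore-forming macrophage protein perforin-2, had 55, 135 and 275 counts, a ratio of 2.44 (2.01 to 2.88), and the antimicrobial ribonuclease gene RNASE6 had 11, 37 and 83 counts, a ratio of 3.03 (2.12 to 4.09).

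**Figure D3:**
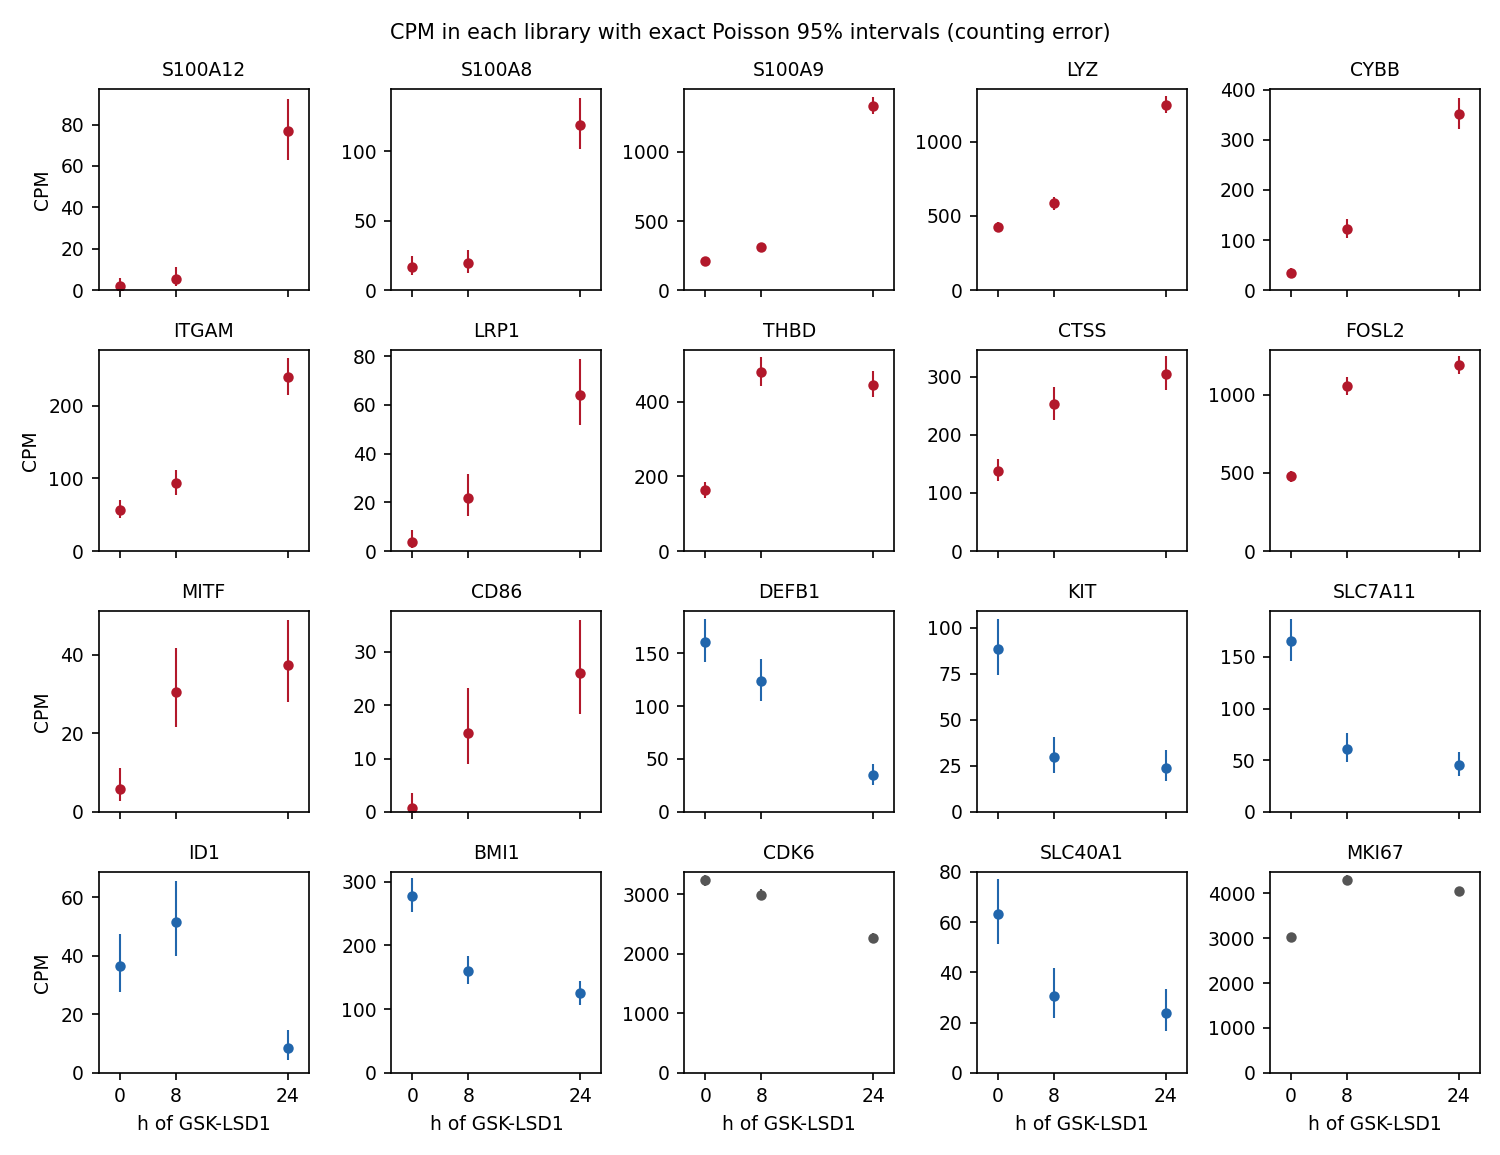
CPM (y axis, from 0 on each panel) against hours of GSK-LSD1 (x axis) for 20 genes, 1 library per time point, with exact Poisson 95% intervals. Red and blue mark levels at 24 h more than 2-fold above and below 0 h. S100A12, S100A8 and S100A9 are far higher at 24 h than at 0 h or 8 h, whereas KIT and SLC7A11 are already low at 8 h.

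Of myeloid and inducible transcription factors, 13 of 35 had 50 or more counts, 2 were higher and 1 was lower. FOSL2, an AP-1 subunit, had 735, 1350 and 1688 counts, from 478 to 1188 CPM, a ratio of 1.31 (1.19 to 1.44). KLF6, a zinc finger factor of macrophages, had 53, 120 and 107 counts, a ratio of 1.13 (0.64 to 1.63). ID1, which keeps basic helix-loop-helix factors from DNA, had 56, 66 and 12 counts, a ratio of -2.11 (-3.14 to -1.19), with a drop only in the 24 h library. The lineage regulators SPI1, CEBPA, CEBPB and IRF8 stayed within 2-fold. SPI1, which encodes PU.1, had 69, 87 and 102 counts, a ratio of 0.68 (0.22 to 1.14), and CEBPA had 0.01 (-0.09 to 0.10) at 1209 CPM. CEBPB had -0.30 (-0.74 to 0.13), IRF8 -0.13 (-0.50 to 0.23) and JUN 0.88 (0.41 to 1.36). MITF, a regulator of lysosomal and pigment cell genes that no list held, was higher with 9, 39 and 53 counts, a ratio of 2.67 (1.64 to 3.88). Under the 50-count limit, MAF had 2, 15 and 36 counts, a ratio of 4.28 (2.33 to 7.38).

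Adaptors, receptors and a phosphatase of signalling pathways were also among the higher rows. IRS1, an adaptor of insulin and IGF receptors, had 16, 34 and 111 counts, a ratio of 2.91 (2.14 to 3.76). GAB2, an adaptor below cytokine receptors, had 234, 495 and 797 counts, a ratio of 1.88 (1.67 to 2.10). DUSP4, a phosphatase of MAP kinases, had a ratio of 2.15 (1.56 to 2.78), and SLA, an adaptor that limits antigen receptor signals, had 1.72 (1.38 to 2.07). The prolactin receptor gene PRLR had 53, 171 and 253 counts, a ratio of 2.37 (1.94 to 2.82). OSBPL11, an oxysterol-binding protein relative on chromosome 3 (125528858 to 125595497, reverse strand), had 53 counts before treatment, a level of 34.5 CPM, and 324 at 8 h, and its ratio at 24 h was 3.08 (2.66 to 3.52), most of it present at 8 h. Of 17 chemokine and cytokine genes only IL1RN, the interleukin-1 receptor antagonist, had 50 or more counts, and it was higher with 71, 203 and 222 counts, a ratio of 1.76 (1.37 to 2.16). AHNAK, a giant scaffold protein, had 4646, 7093 and 10261 counts, from 3024 to 7225 CPM, a ratio of 1.26 (1.21 to 1.31).

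Lower rows included the progenitor genes KIT and BMI1. KIT, the stem cell factor receptor of progenitors and mast cells on chromosome 4 (54657267 to 54740783, forward strand), had 136, 38 and 34 counts at 0, 8 and 24 h, a ratio of -1.89 (-2.47 to -1.34). BMI1, a Polycomb protein needed for stem cell self-renewal, had 427, 205 and 177 counts, a ratio of -1.16 (-1.42 to -0.90). These were the 2 lower members of the MLL-AF9 and stem or progenitor list, of which 11 of 31 genes had 50 or more counts, none was higher and the median was -0.18. Of those 11, 7 had ratios below 0 and 4 above 0, up to 0.45. GFI1, whose values are given with the partners of LSD1, was among those above 0. CDK6, a cell cycle kinase and a target of MLL fusions, had 4967, 3835 and 3224 counts, a ratio of -0.51 (-0.57 to -0.45). RUNX1 had -0.25 (-0.37 to -0.12) and BCL2 -0.18 (-0.30 to -0.06). GATA2, a progenitor factor under the limit, had 47, 25 and 18 counts, a ratio of -1.27 (-2.14 to -0.46). HOXA9, the classical MLL-AF9 target, had 8, 2 and 6 counts, and MEIS1 and MYB were listed at 0 in both libraries, so this core of the program could not be followed here. MYC had 0 counts at 0 h and 2 at 24 h.

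The partners of LSD1 stayed within 2-fold where they could be measured. KDM1A had 1 count at 0 h, 0 at 8 h and 1 at 24 h, which gives no usable ratio. RCOR1, which encodes CoREST, had 841, 758 and 825 counts, a ratio of 0.09 (-0.05 to 0.23). GFI1 had 1558, 1911 and 1827 counts, a ratio of 0.34 (0.24 to 0.44), and GFI1B was listed at 0.

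DEFB1, a secreted antimicrobial defensin, led the named lower rows with 247, 158 and 49 counts, from 161 to 34.5 CPM, a ratio of -2.22 (-2.69 to -1.77) or 4.66-fold lower. SLC7A11, the cystine and glutamate exchanger that feeds glutathione synthesis, had 254, 78 and 64 counts, a ratio of -1.88 (-2.29 to -1.47). It was the only member past 2-fold among 7 of 14 genes of the amino acid and ATF4 list, where ATF4 had -0.23 (-0.35 to -0.10) and TRIB3 -0.64 (-1.09 to -0.20). The iron exporter gene SLC40A1 had 97, 39 and 34 counts, a ratio of -1.40 (-2.01 to -0.82), while NQO1, a quinone reductase, was higher at 1.31 (0.79 to 1.86). FTL, the ferritin light chain, had 0.41 (0.36 to 0.45). Catalase, encoded by CAT, was lower, from 134 to 60.6 CPM, a ratio of -1.15 (-1.53 to -0.78), and so was the ferrochelatase gene FECH with 52, 26 and 24. SERPINB2, a plasminogen activator inhibitor of monocytes, had 164, 45 and 60 counts, a ratio of -1.34 (-1.79 to -0.90). CD38, an NAD glycohydrolase on the surface of leukocytes, had 232, 117 and 104 counts, a ratio of -1.04 (-1.39 to -0.70). LY75, the endocytic receptor DEC-205, had 64, 33 and 29 counts, a ratio of -1.03 (-1.71 to -0.37). GPR160, an orphan receptor, had 322, 78 and 94 counts, a ratio of -1.66 (-2.01 to -1.33).

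No tested gene of the proliferation list was past 2-fold. Of 44 genes of DNA replication, mitosis and cell cycle inhibition, 16 had 50 or more counts, and their median was 0.13. MKI67, the antigen of cycling cells, had 4652, 5497 and 5743 counts, a ratio of 0.42 (0.36 to 0.47), and TOP2A had 0.07 (0.00 to 0.14). PCNA had -0.06 (-0.23 to 0.10), the cell cycle inhibitor CDKN1A had 0.31 (-0.01 to 0.62), and the antiproliferative gene BTG2 had the largest ratio of those 16 at 0.86 (0.41 to 1.33). Outside this list, a cyclin and its kinase that act at the start of S phase were lower. CCNE2, which encodes cyclin E2, had 114, 62 and 49 counts, a ratio of -1.10 (-1.62 to -0.61), and CDK2 had 60, 19 and 22 counts, a ratio of -1.33 (-2.11 to -0.61).

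The remaining lists held few or no rows past 2-fold. Over all 17 lists, 127 of 404 genes had 50 or more counts, 18 were higher, 6 were lower and the median was 0.15. Over all rows, 3.36% were higher and 2.19% lower. In ribosome biogenesis, 13 of 31 genes had a median of -0.21 with none past 2-fold, DKC1 of the telomerase and pseudouridine complex being lowest at -0.72 (-1.11 to -0.34). In the MHC class I and interferon list, 10 of 40 genes had a median of 0.23, with IFI35 at 0.98 (0.29 to 1.70) and OAS3 at 0.86 (0.49 to 1.23) as the highest of those 10. Under the limit, OAS1 had 3, 15 and 29 counts, a ratio of 3.39 (1.70 to 5.75), and GBP2 had 3, 7 and 13, a ratio of 2.23 (0.37 to 4.68). IFIT1, also under the limit, had 18, 15 and 19, a ratio of 0.19 (-0.82 to 1.21). The sterol and lipid list had a median of 0.18 over 8 of 21 genes, with SCD, the desaturase of fatty acids, at 0.50 (0.43 to 0.57) and the cholesterol exporter gene ABCA1 at 0.62 (0.42 to 0.82). The 4 tested actin and adhesion genes all lay between 0.24 and 0.48. None of the 7 MHC class II genes and none of the 18 glycolysis genes had 50 counts. HLA-DRB5 had 72 counts at 0 h and 143 at 24 h, a ratio of 1.10 (0.68 to 1.53). It shares sequence with other class II beta chains, so the origin of its reads is uncertain.

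**Figure D4:**
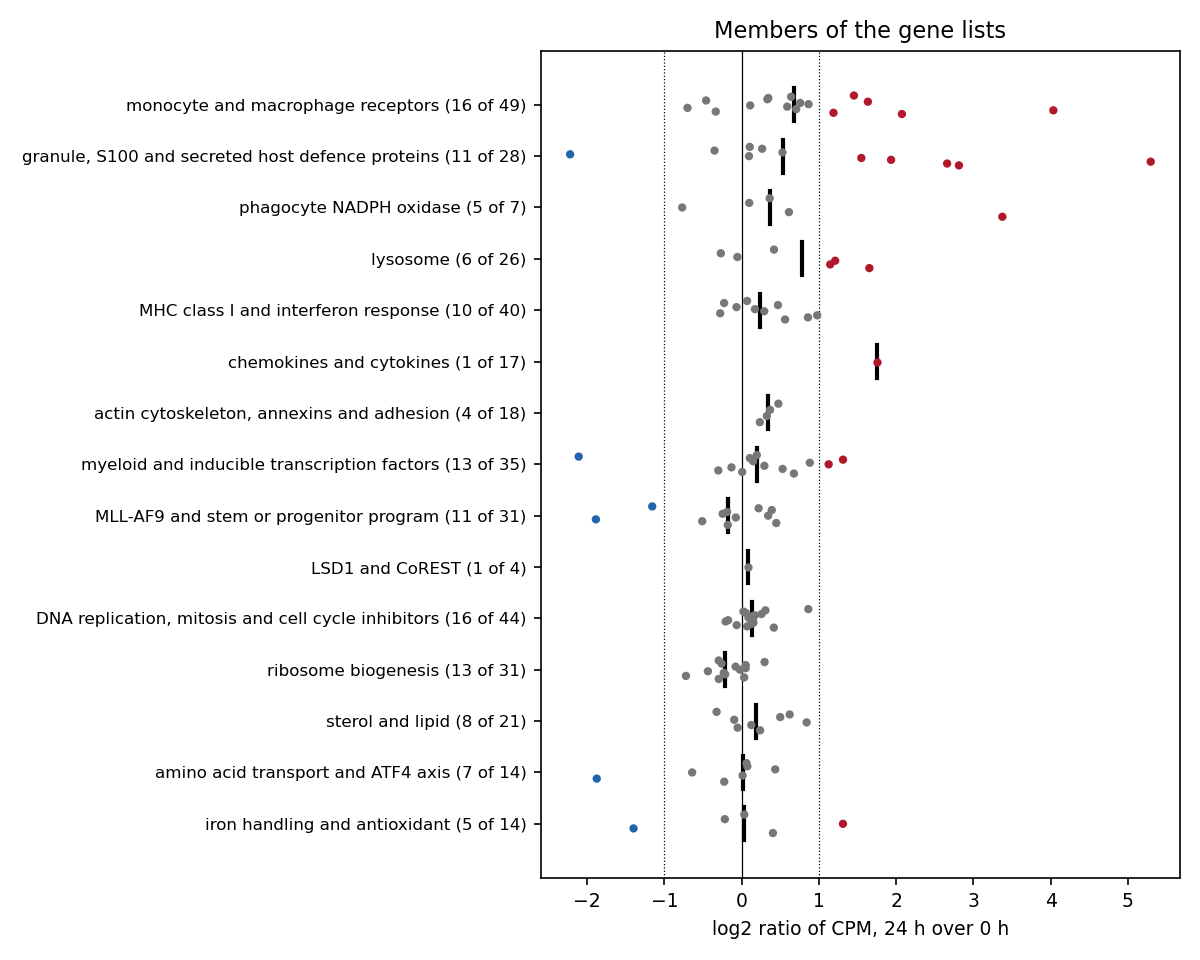
Log2 ratio of CPM, 24 h over 0 h (x axis), for members of the gene lists with 50 or more counts in either library. Each point is a gene, black bars are list medians, and numbers in brackets give genes shown of genes in the list. Receptors, granule proteins and lysosomal genes have members beyond the right dotted line, and replication and ribosome biogenesis genes lie between the lines.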

How the data were processed

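RNA-seq of THP-1 cells was deposited as 1 table with a library per time point. Per the labels, total RNA was depleted of ribosomal RNA before library preparation, and the submitters' processing notes name fastp, STAR and hg38. The authors deposited raw counts for each row, as whole numbers, and did not normalize them. The counting tool, the annotation and the strand setting are not given in the sources used here. Each column was matched to its sample by name.

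TMM factors (edgeR 4.0.16 in R 4.3.3) were taken over all 3 libraries on the 9609 rows with 10 or more counts in a library, and were 1.04 at 0 h, 0.977 at 8 h and 0.984 at 24 h. Ratios of CPM were computed without a prior count for rows with 50 or more counts at 0 h or 24 h, with exact (Clopper-Pearson) 95% intervals conditional on the sum of both counts (Python 3.11.15, numpy 2.4.6, scipy 1.17.1, pandas 2.3.3). A row at 0 was set to 3 counts (1.95 CPM at 0 h, 2.11 CPM at 24 h) and its ratio given against that floor, which leaves out the counting error of the other library. No ratio was given where both libraries had 3 counts or fewer. The reads carry no molecular identifiers, so intervals and floors cover counting error only. With 1 library a side, no p-value was computed, and differences compare libraries.

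Named were the 20 leading rows in each direction, list members past 2-fold and 11 genes at any value. The rows, lists and genes were chosen with earlier results of these data known. Transcripts were named from GENCODE 44, and accessions from knowledge of UniProt. Promoter sequences came from RefSeq (GRCh38.p14), which held 95 of the 128 higher and 47 of the 64 lower genes. The computation was tested on simulated counts. Alternatives were DESeq2 (1.42.0) size factors, total counts, other TMM sets, other count limits, a prior count, a stricter call and accession rows alone.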

Additional observations from a re-analysis of the deposited data

How the results depend on the processing

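Under DESeq2 size factors, total counts, TMM over the 0 h and 24 h libraries alone, a prior count of 2 or accession rows alone, the number of higher rows stayed between 121 and 145 and that of lower rows between 72 and 126. TMM over all rows, added after the data were seen, gave 135 and 105. The counts moved by more than 1.5 times with the filter and the call. With 20 or more counts in either library, 329 rows were higher and 284 lower. With 100 or more counts, 93 were higher and 38 lower, and without a filter but with a prior count of 2 there were 4393 and 2000. Counting intervals wholly past 2-fold left 67 and 13. The numbers of list genes, 18 higher and 6 lower, did not change under the 4 other scalings, and without a filter they were 45 and 11. Of 335 single ratios recomputed under the other scalings, 10 of 1344 values fell outside the counting interval of the reported value. Ratios near no change can switch sign. Total counts shift every log2 ratio by -0.08, while TOP2A has a ratio of 0.07 under TMM. No setting left out a replicate, since each time point has 1 library. No paired analysis was possible because each time point has a single library. The depth limits rows near 50 counts to wide intervals, and genes with 3 counts or fewer in both libraries to no ratio.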

Other observations

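The Notch pathway genes named here were higher, and Frizzled receptors of the Wnt pathway stood on both sides. They were grouped after their values were seen. Each of the Notch genes named had under 50 counts at 0 h and passed the count limit through the 24 h library alone. Their shared direction was therefore set by that limit and says nothing of the pathway. DTX4, a ubiquitin ligase of the Deltex family that acts on Notch receptors, had 23, 68 and 211 counts at 0, 8 and 24 h, a log2 ratio of 3.31 with a 95% counting interval that starts at 2.69. It lies on chromosome 11 of GRCh38 from 59171430 to 59208588 on the forward strand. The Notch ligand gene DLL1 had 36, 59 and 99 counts, a ratio of 1.57 (1.01 to 2.17), and the coactivator gene MAML3 had 26, 22 and 50, a ratio of 1.06 (0.35 to 1.80). Of the Frizzled receptors of Wnt, FZD2 was higher with 78, 166 and 177 counts, a ratio of 1.30 (0.90 to 1.70), and FZD3 lower with 106, 45 and 38, a ratio of -1.37 (-1.94 to -0.82).

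Rows named by transcripts are mostly non-coding, and their counts stand beside 3.36% higher and 2.19% lower over all rows. Of 58 retained-intron transcripts with 50 or more counts, none was higher and 6 were lower, with a median log2 ratio of -0.36. They included a retained intron of DDX17, an RNA helicase gene, with 355, 128 and 147 counts. Such transcripts overlap coding transcripts of the same genes, so the origin of their reads is uncertain. The lncRNAs numbered 110, with 5 higher, 8 lower and a median of -0.02. LINC00649 had the largest ratio of the named ones at 2.67 (1.87 to 3.56), and MIR142HG, the host transcript of the leukocyte microRNA miR-142, had 109, 30 and 40 counts, a ratio of -1.33 (-1.89 to -0.80). RN7SL3, a 7SL RNA of the signal recognition particle, had 331, 688 and 652 counts, a ratio of 1.09 (0.90 to 1.29). The mitochondrial ribosomal RNAs MT-RNR1 and MT-RNR2, a class that ribosomal RNA depletion targets, had 712, 3 and 271 counts and 1661, 9 and 743 counts, so the 8 h library was far below both others. ANXA2P2, a processed pseudogene of annexin A2, had 12, 33 and 73 counts, while ANXA2 itself had 0, 0 and 1 under its accession, so the reads of these near-identical sequences cannot be told apart.

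Rows without a certain gene name included A0A087WXP0, with 349, 56 and 57 counts and a ratio of -2.50 (-2.93 to -2.09), and Q6IBC8, with 75, 201 and 290 counts and a ratio of 2.06 (1.69 to 2.45).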
